A study of Mus musculus with 8 samples.

Results

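Kbtbd12 and 9 other genes of the BTB-kelch family were followed in mouse white quadriceps. The 10 genes were chosen by name as muscle BTB-kelch genes, from 54091 genes in the table, and Kbtbd12 was picked because it differed between the groups of this study. Its group difference is therefore given as a description with no test. The 9 others were Klhl31, Klhl41, Klhl40, Klhl33, Klhl30, Kbtbd2, Kbtbd13, Kbtbd7 and Klhl38. All 10 had enough reads to be tested, among 13638 tested genes.

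The samples were the white portion of the quadriceps from 8 male mice aged 11 to 14 weeks, fed chow (Purina diet 5001) and killed in the morning. The 4 control mice had the genotype Loxp/Loxp, with loxP sites flanking Acot2. The 4 Acot2 mKO mice carried in addition a Cre recombinase under the CKM promoter, which is active in skeletal and heart muscle, so Acot2 was lost in muscle. The control genotype names no Cre, so an effect of the recombinase or its transgene and an effect of losing Acot2 cannot be told apart. Library totals ran from 30415432 to 48834289 reads. Acot2 itself, which encodes a mitochondrial acyl-CoA thioesterase, had 213, 149, 251 and 240 normalized reads in the control group (replicates 1 to 4) and 43.8, 42.8, 53.7 and 48.9 in the Acot2 mKO group, so the groups did not overlap. A normalized read is a read count divided by a factor for its library.

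BTB-kelch proteins bring substrates to ubiquitin ligases built on Cullin-3. The BTB domain binds the cullin, and the kelch repeats fold into a propeller that binds the substrate. Several members of the family are made mainly in striated muscle, where KLHL40, KLHL41 and KBTBD13 are known as nemaline myopathy genes. Not every member acts only to degrade its partner: KLHL40 and KLHL41 are known to stabilise thin filament proteins.

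Kbtbd12 (NCBI gene 74589) is a minus strand gene of chromosome 6, spanning 88545114 to 88637950 in GRCm38. The annotation gives it 7 transcripts, the longest with 6 exons and 4644 bases. None of the 4595 stretches of 50 bases in that transcript occur in a transcript of another gene (0% shared), and no annotated gene overlaps it. Of the 7 transcripts, 3 start within 20 bases of the RefSeq start site at 88627429. The others start at 88637950, 88618522, 88618501 and 88590659. The values are counts per gene, so they do not say which start was used.

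Promoters, 250 bases before to 50 after a RefSeq start site (GRCm38.p6), were at hand for 8 of the 10 genes. Those of the gene that differed, of the 2 genes with the highest level per length and of Klhl33, at its start site farther upstream, are printed here to show how their motifs compare. They run 5′ to 3′ on the gene's strand. Capitals mark matches, on either strand, to an E-box (CANNTG, the site of myogenic bHLH factors), the MEF2 element, a TATA box (TATAAA) or a nuclear receptor half-site (AGGTCA).
Kbtbd12, chr6:88627380-88627679, minus strand: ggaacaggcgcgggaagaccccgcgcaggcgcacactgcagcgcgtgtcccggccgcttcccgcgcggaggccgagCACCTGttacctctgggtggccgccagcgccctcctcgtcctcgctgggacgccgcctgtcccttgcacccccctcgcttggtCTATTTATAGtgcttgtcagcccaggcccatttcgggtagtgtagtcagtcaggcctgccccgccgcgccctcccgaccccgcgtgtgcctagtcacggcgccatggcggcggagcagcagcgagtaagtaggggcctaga
Klhl41, chr2:69669870-69670169, plus strand: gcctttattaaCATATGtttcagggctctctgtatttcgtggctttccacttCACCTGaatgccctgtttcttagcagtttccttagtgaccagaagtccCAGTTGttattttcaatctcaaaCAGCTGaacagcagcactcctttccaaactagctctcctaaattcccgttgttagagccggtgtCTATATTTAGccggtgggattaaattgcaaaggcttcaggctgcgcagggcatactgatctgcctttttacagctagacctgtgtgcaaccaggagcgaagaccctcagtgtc
Klhl33, chr14:50897434-50897733, minus strand: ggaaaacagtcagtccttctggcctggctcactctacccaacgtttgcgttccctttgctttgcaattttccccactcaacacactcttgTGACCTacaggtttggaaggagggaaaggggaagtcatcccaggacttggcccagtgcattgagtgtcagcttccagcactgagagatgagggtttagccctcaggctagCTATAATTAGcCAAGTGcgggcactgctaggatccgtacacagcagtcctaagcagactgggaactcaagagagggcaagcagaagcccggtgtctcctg
Klhl31, chr9:77636482-77636781, plus strand: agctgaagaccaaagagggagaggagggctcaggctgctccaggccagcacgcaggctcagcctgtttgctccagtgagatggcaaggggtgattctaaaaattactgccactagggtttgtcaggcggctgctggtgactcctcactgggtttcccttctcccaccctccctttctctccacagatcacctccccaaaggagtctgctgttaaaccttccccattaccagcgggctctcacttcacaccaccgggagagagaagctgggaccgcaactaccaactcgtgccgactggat
The Kbtbd12 promoter held a MEF2 element, the motif of a muscle transcription factor family, at -91 from the start site, where -1 is the last base before it. A TATA box match on the other strand, at -88, lay inside that element. An E-box stood at -174. Klhl41 held a MEF2 element at -63 and E-boxes at -239, -198, -150 and -127, the last of them CAGCTG. The printed Klhl33 promoter had a MEF2 element at -50, an E-box at -39 and, on the other strand, a half-site at -160. In the other Klhl33 promoter, with its start site at 50895352, the only match was an E-box at 28. Klhl31 matched none of the motifs searched. MEF2 elements were found in 3 of the 9 promoters of the 8 genes and in 3.19% of 32851 promoters of this length. E-boxes were found in 6 of the 9 and in 72.3% of all. TATA boxes were found in 2 of the 9, those of Kbtbd12 and Kbtbd13, and in 13.6% of all. CAGCTG was found in 2 of the 9 and in 16.3% of all, and the half-site in 1 of the 9 and in 16.3% of all. The CArG box, the motif of serum response factor, and DR1, a pair of half-sites with 1 base between them, were found in 0 of the 9, and in 1.63% and 0.0396% of all. The Kbtbd12 promoter was 69.7% G or C with 32 CpG, against medians of 52.7% and 7 over all promoters, while the Klhl41 promoter was 46.3% G or C with 6 CpG. A match describes the letters of the window and not a bound site.

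Kbtbd12 was higher in every Acot2 mKO library than in any control library. Control replicates 1 to 4 held 1722, 1840, 1730 and 1715 normalized reads. Acot2 mKO replicates 1 to 4 held 5465, 5292, 5381 and 4662. The control mean was 1752 ± 59.1 and the Acot2 mKO mean 5200 ± 366 (SD, n = 4 each), a ratio of 2.97. On the log2 scale the difference was 1.57. The groups were far apart: the lowest Acot2 mKO library, replicate 4, was above the highest control library, replicate 2. These values rested on 1585 to 6582 reads per library. The spread within groups was small, with a coefficient of variation of 3.38% among control and 7.03% among Acot2 mKO libraries.

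**Figure D1:**
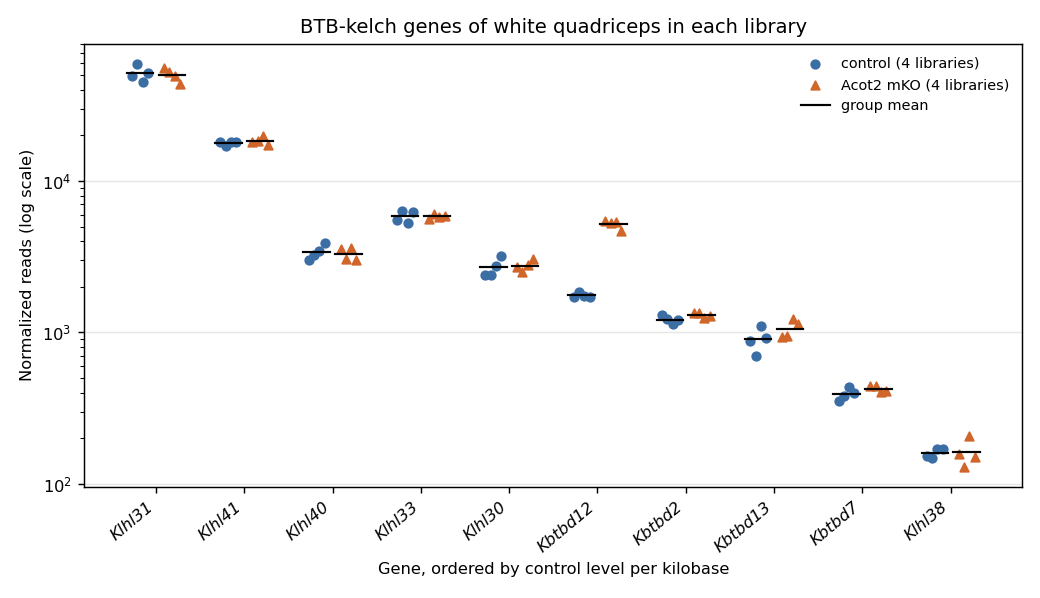
Normalized reads (y axis, log scale) of the 10 genes (x axis, in the order of their control level per kilobase) in the 4 control libraries (circles) and the 4 Acot2 mKO libraries (triangles), with the group mean as a bar. Kbtbd12 runs from 1715 to 1840 among circles and from 4662 to 5465 among triangles, while the groups of each other gene overlap.

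As background, limma called 1 of all tested genes higher in Acot2 mKO muscle at an adjusted p under 0.05 (0.00733%) and 1 lower (0.00733%). The 1 lower gene was Acot2. The 1 higher gene was Kbtbd12, which had been picked on this same difference, so that call restates the choice and nothing is read from it. None of the 9 other genes passed in either direction, and 0 had an unadjusted p under 0.05, a level that 2.91% of all tested genes reached. The limma-voom test on recovered reads also called 0 of the 9. Groups did not overlap for 0 of the 9, against 1.92% of all tested genes. The median log2 difference was 0.0396 over the 9 genes and 0.00494 over all tested genes, with 5 of the 9 above 0. Their 95% confidence intervals ran from -0.34 to 0.54 on the log2 scale, which is 0.791 to 1.45 times the control level. The lowest bound was that of Klhl38 and the highest that of Kbtbd13. These bounds are per gene and unadjusted. They do not mark the smallest difference that the adjusted test could call with 4 libraries a group.

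**Figure D2:**
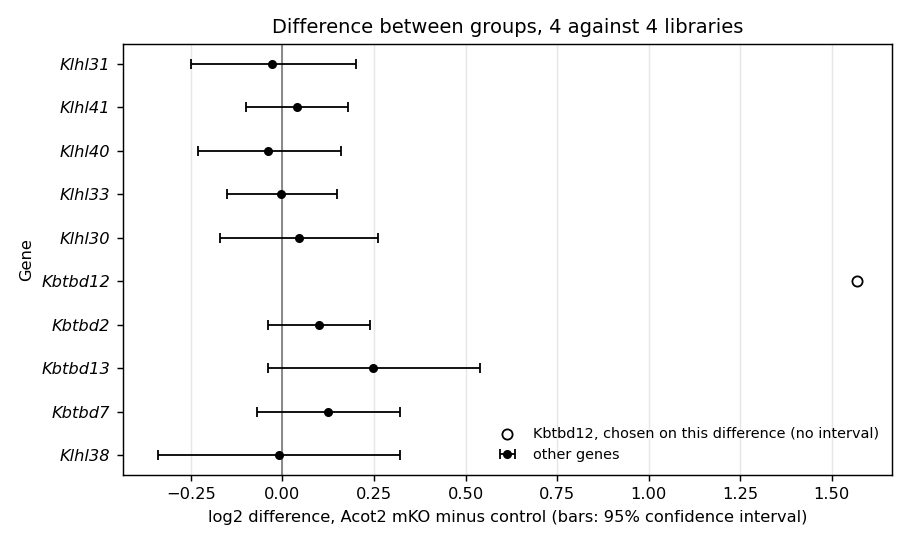
Difference of the deposited log2 values, Acot2 mKO minus control (x axis), for each gene (y axis), with 95% confidence intervals from limma for the 9 other genes and none for Kbtbd12 (open circle). Kbtbd12 stands at 1.57, and the interval of each other gene includes 0.

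The abundant end of the group was held by Klhl31 and Klhl41. Klhl31 (NCBI gene 244923, chromosome 9, 77636500 to 77660127, plus strand) is known to act on filamin C in muscle. It held 49347, 59084, 44995 and 51879 normalized reads in control replicates 1 to 4 and 55484, 52418, 49285 and 43913 in Acot2 mKO replicates 1 to 4. Both the highest value, in control replicate 2, and the lowest, in Acot2 mKO replicate 4, lay at the edge of wide and overlapping groups. Its log2 difference was -0.03 (95% confidence interval -0.25 to 0.20, limma adjusted p = 0.9995).

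Klhl41 (NCBI gene 228003, chromosome 2, 69670120 to 69684230, plus strand) is known to stabilise nebulin, the giant ruler protein of the thin filament. Control replicates 1 to 4 held 18183, 16958, 17973 and 18201 normalized reads, and Acot2 mKO replicates 1 to 4 held 18184, 18224, 19785 and 17169. Apart from the highest, Acot2 mKO replicate 3, the libraries lay close together. The log2 difference was 0.04 (95% confidence interval -0.10 to 0.18, limma adjusted p = 0.9995). The within-group SD of Klhl41 was 0.0687 on the log2 scale, and 6.38% of tested genes had a smaller one. Among the 115 genes within 0.5 of its mean log2 level, 24.3% had a smaller one.

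Klhl40 (NCBI gene 72330, chromosome 9, 121777607 to 121783818, plus strand) is known to stabilise nebulin and leiomodin-3. It held 2991, 3239, 3461 and 3876 normalized reads in control replicates 1 to 4 and 3533, 3060, 3582 and 3015 in Acot2 mKO replicates 1 to 4. All Acot2 mKO values lay inside the control range, and the log2 difference was -0.04 (95% confidence interval -0.23 to 0.16, limma adjusted p = 0.9995). Of its stretches of 50 bases, 17.5% occur in Gm47108, a gene on the opposite strand that held 0 to 4 reads per library.

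Kbtbd13 (NCBI gene 74492, chromosome 9, 65388684 to 65391652, minus strand), a gene with 1 exon whose product is known to bind thin filaments, had the largest difference of the 9. Control replicates 1 to 4 held 882, 702, 1097 and 913 normalized reads, and Acot2 mKO replicates 1 to 4 held 933, 950, 1222 and 1135. The groups overlapped, with 2 of 4 Acot2 mKO libraries above the highest control library. The log2 difference was 0.25 (SE 0.13, 95% confidence interval -0.04 to 0.54, unadjusted p = 0.0882, limma adjusted p = 0.9995). In each group the 2 highest libraries for Kbtbd13 were replicates 3 and 4. Those were also the libraries with the most Myh2, the myosin of fast oxidative fibres, at 73690 and 50366 normalized reads in control and 50678 and 51585 in Acot2 mKO, against 797 to 7832 in the other 4. In replicates 1 and 2 Kbtbd13 held 882 and 702 in control against 933 and 950 in Acot2 mKO. In replicates 3 and 4 it held 1097 and 913 against 1222 and 1135. Leaving out Acot2 mKO replicates 3 and 4 keeps libraries high in Myh2 in control only, and the Kbtbd13 difference was then 0.08. Without control replicate 2, the library with the least Myh2, the Kbtbd13 difference was 0.13. Without control replicate 3 it was 0.35 (unadjusted p = 0.0169, limma adjusted p = 0.925). The part of fibre type in this difference was not tested.

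Klhl33 (NCBI gene 546611, chromosome 14, 50888582 to 50897507, minus strand) held 5562, 6340, 5311 and 6228 normalized reads in control replicates 1 to 4 and 5579, 6080, 5772 and 5903 in Acot2 mKO replicates 1 to 4. Every Acot2 mKO value lay within the control range. The log2 difference had a 95% confidence interval of -0.15 to 0.15 (limma adjusted p = 0.9995). Klhl30 (NCBI gene 70788, chromosome 1, 91351016 to 91362416, plus strand) held 2384, 2406, 2762 and 3183 in control and 2695, 2503, 2789 and 3034 in Acot2 mKO replicates 1 to 4. Its Acot2 mKO values also lay within the control range, with a log2 difference of 0.04 (95% confidence interval -0.17 to 0.26, limma adjusted p = 0.9995).

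Kbtbd2 and Kbtbd7 are adaptors with partners outside the sarcomere. Kbtbd2 (NCBI gene 210973, chromosome 6, 56777524 to 56797813, minus strand) is known to mark the regulatory subunit of phosphoinositide 3-kinase, Pik3r1, for degradation. It held 1302, 1221, 1138 and 1201 normalized reads in control replicates 1 to 4 and 1352, 1341, 1237 and 1280 in Acot2 mKO replicates 1 to 4. All 4 Acot2 mKO libraries lay above the control mean of 1216, but the groups overlapped, and the log2 difference was 0.10 (95% confidence interval -0.04 to 0.24, limma adjusted p = 0.9995). It lies on the chromosome that carries Kbtbd12. Kbtbd7 (NCBI gene 211255, chromosome 14, 79426511 to 79431036, plus strand), which is known to act on Tiam1 and neurofibromin, held 353, 378, 434 and 395 in control and 445, 443, 403 and 407 in Acot2 mKO replicates 1 to 4. Here too all 4 Acot2 mKO libraries were above the control mean of 390, with overlap and a log2 difference of 0.12 (95% confidence interval -0.07 to 0.32, limma adjusted p = 0.9995). Of the Kbtbd7 stretches, 16.2% also occur in its close relative Kbtbd6, which held 0 to 1 read per library.

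Klhl38 (NCBI gene 268807, chromosome 15, 58314573 to 58324169, minus strand) was the least abundant, with 152, 148, 171 and 170 normalized reads in control and 157, 130, 208 and 150 in Acot2 mKO replicates 1 to 4. Acot2 mKO replicates 2 and 3 held the lowest and the highest value of all. The log2 difference was -0.01 (95% confidence interval -0.34 to 0.32, limma adjusted p = 0.9995), the widest interval of the 9. It rested on 106 to 212 reads per library. Of its stretches, 62.6% occur in Gm15943 on the opposite strand, which held at most 2 reads in a library. Whether counting used the strand was not stated in the sources used. For Klhl41, Kbtbd2 and Klhl33, 4.68%, 5.39% and 1.28% of stretches occur in many other genes, and for Klhl31, Klhl30 and Kbtbd13 none do (0%).

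Levels of different genes were compared as normalized reads per kilobase of the longest annotated transcript. In control libraries Klhl31 stood at 7904 ± 909 and Klhl41 at 7050 ± 233 (SD, n = 4 each). Among 13203 tested genes with a length Klhl41 held place 121, and the order of the 2 held in 3 of 4 control libraries, with overlapping ranges. Klhl40 followed at 1431 ± 159, then Klhl33 at 1063 ± 91.1 and Klhl30 at 869 ± 121. The ranges of Klhl33 and Klhl30 overlapped, although the order held in 4 of 4 control libraries. Kbtbd12 held place 6, at 377 ± 12.7, below Klhl30 and above Kbtbd2 without overlap. Kbtbd2 stood at 314 ± 17.6 and Kbtbd13 at 303 ± 54.6, overlapping each other. Kbtbd7 at 86.2 ± 7.47 and Klhl38 at 72.4 ± 5.44 closed the order, and their control ranges did not overlap.

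In Acot2 mKO libraries Kbtbd12 stood at 1120 ± 78.7 normalized reads per kilobase (SD, n = 4), which is place 4 of the 10 genes. Among all 13203 genes its place was 972 there and 2669 in the control libraries. It lay above Klhl30 without overlap and overlapped Klhl33, which it exceeded in 3 of 4 libraries. Klhl40 stayed above it in 4 of 4. The ranks rest on the length used: over the union of all exons, which for Kbtbd12 is 9381 bases, Kbtbd12 held place 8 in control libraries.

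The level of Kbtbd12 was also set against each other gene within the same library, which removes any scaling shared by a library. Relative to Klhl41 it was 0.0513 to 0.0591 across control and 0.148 to 0.164 across Acot2 mKO libraries. Relative to Klhl33 the 2 groups spanned 0.327 to 0.387 and 0.938 to 1.16. Relative to Kbtbd13, the gene with the highest difference of the 9, it was 1.01 to 1.68 and 2.63 to 3.75. Control and Acot2 mKO ranges were apart for each of the 9 ratios, and the means of the ratios differed 2.48-fold to 3.03-fold. Kbtbd12 made up 1.94% ± 0.0734 of the summed control level per kilobase of the 10 genes, and 5.51% ± 0.105 of the Acot2 mKO sum (SD, n = 4 each). The sum of the 9 others was 19092 ± 816 and 19196 ± 1003. Kbtbd12 was picked on its group difference, so its ratios and its share restate that choice and are given as a description.

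**Figure D3:**
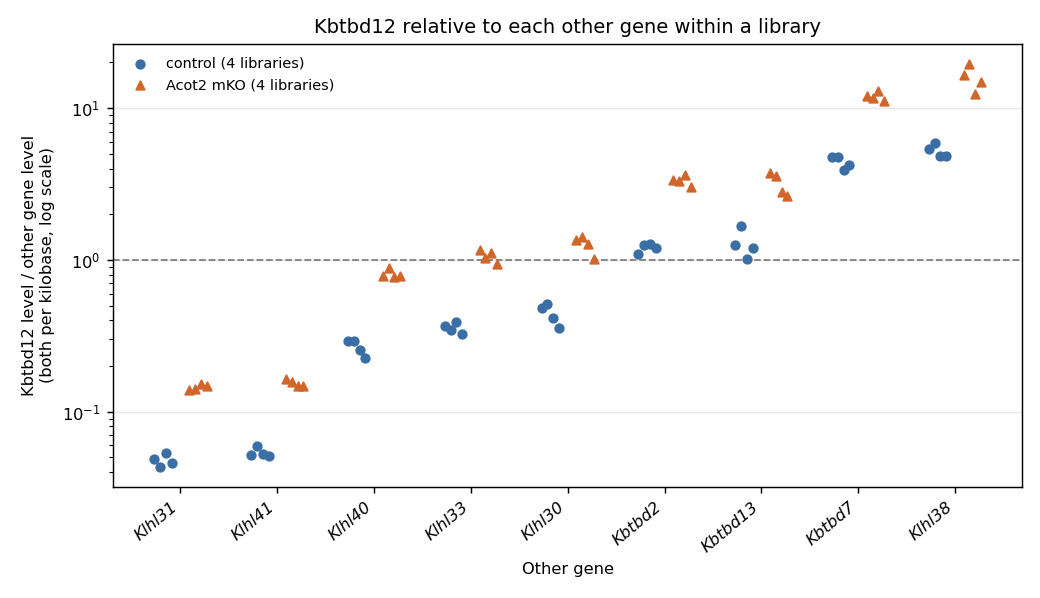
Level of Kbtbd12 divided by the level of each other gene in the same library, both per kilobase (y axis, log scale), for the 9 other genes (x axis), in 4 control libraries (circles) and 4 Acot2 mKO libraries (triangles). The dashed line marks equal levels. Against Klhl33 the circles span 0.327 to 0.387 and the triangles 0.938 to 1.16. Kbtbd12 was picked on its group difference, so the distance between circles and triangles restates that choice.

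The wider family holds 50 genes of the table, of which 44 were tested. The 40 genes other than the 10 include 34 tested ones, with 17 above and 17 below 0, a median log2 difference of 0.0085 and 0 that passed by limma. None of the 43 tested family members other than Kbtbd12 had an unadjusted p under 0.05. The most abundant of the 34 per length were Ivns1abp, which binds an influenza protein, at 1619 and 1717 normalized reads per kilobase in control and Acot2 mKO, and Klhl24 at 1602 and 1643. Klhl21 stood at 1034 and 1073, and Klhl9 at 979 and 1016. The smallest p belonged to Klhl4, with a log2 difference of 0.39 (95% confidence interval -0.06 to 0.83, unadjusted p = 0.0852, limma adjusted p = 0.9995), and Klhl6, with -0.37 (-0.97 to 0.22, adjusted p = 0.9995), was next among those 34. By level per length Kbtbd12 moved from place 13 of the 50 in the control group to place 6 in the Acot2 mKO group.

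The highest log2 difference of the 43 tested family members other than Kbtbd12 was that of Klhl34, at 0.63. Klhl34 was named after its values were seen. It held 61.4, 24.6, 234 and 187 normalized reads in control replicates 1 to 4 and 49.7, 141, 235 and 237 in Acot2 mKO replicates 1 to 4. In both groups replicates 3 and 4 were highest, so the spread within groups was wide. The 95% confidence interval of the log2 difference had an upper bound of 2.12.

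**Figure D4:**
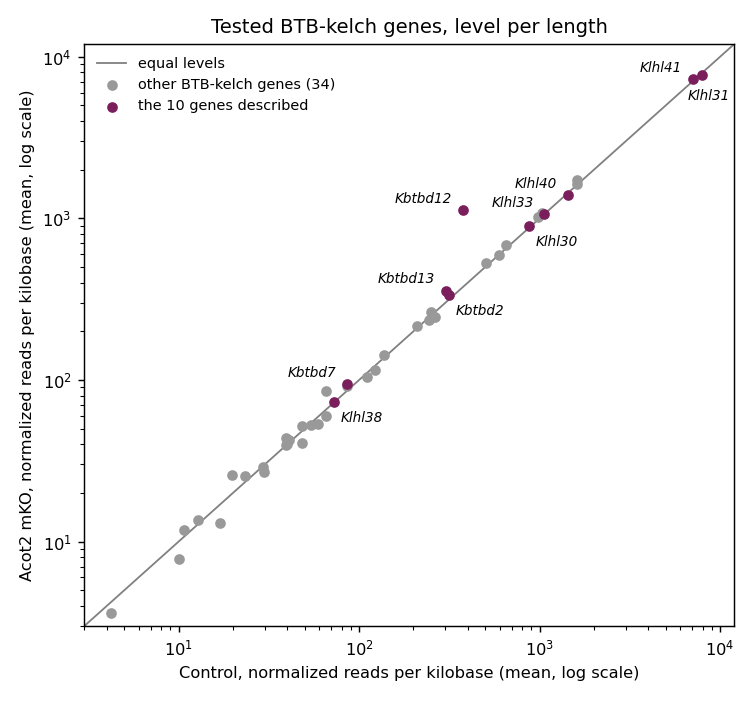
Mean normalized reads per kilobase in Acot2 mKO (y axis) against control libraries (x axis), both on log scales, for the 44 tested BTB-kelch genes, with the 10 genes described in purple and the 34 others in grey; the line marks equal levels. Kbtbd12 lies above the line at 377 and 1120.

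The machinery that these adaptors serve did not pass the test. All 23 genes for the Cullin-3 ligase and for adding and removing NEDD8, the small modifier that activates cullins, were tested. By limma 0 passed and 1 had an unadjusted p under 0.05, a level that 2.91% of all tested genes reached. The median log2 difference was 0.0396, with 15 above and 8 below 0. Over all tested genes 51.7% were above 0. Cul3, the scaffold, had a control mean of 13220 ± 801 normalized reads and an Acot2 mKO mean of 12904 ± 907 (SD, n = 4 each), with a log2 difference of -0.04. Cops5, the catalytic subunit that removes NEDD8, had a difference of 0.03, Dcun1d2, a co-factor of NEDD8 transfer, 0.09, and Nedd8 itself 0.06. Nae1, a subunit of the enzyme that activates NEDD8, was the gene with the small p. Its control replicates 1 to 4 held 932, 823, 896 and 816 normalized reads and its Acot2 mKO replicates 950, 1011, 1085 and 936. It was the 1 gene of the 23 whose groups did not overlap, against 1.92% of all tested genes. Its log2 difference of 0.20 (95% confidence interval 0.04 to 0.36, unadjusted p = 0.0209) had a limma adjusted p = 0.9995. Senp8, which matures NEDD8, had a difference of 0.20 with an unadjusted p = 0.112.

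Partners and substrates of the muscle kelch proteins were measured as well. Of 8 such genes 0 passed by limma and 0 had an unadjusted p under 0.05, with 3 above and 5 below 0 and a median log2 difference of -0.0251. Neb, for nebulin, had a control mean of 840318 ± 86755 normalized reads and an Acot2 mKO mean of 831847 ± 70165 (SD, n = 4 each). Nrap, a scaffold of forming myofibrils, had a log2 difference of 0.09. Flnc, for filamin C, had -0.04, and Lmod3, for leiomodin-3, had 0.11. Nf1, for neurofibromin, had -0.07, and Lasp1, an actin-binding protein, had -0.09. The list also held Pik3r1 and Tiam1. Over the 8 genes the differences ran from -0.16, in Pik3r1 or Tiam1, to 0.11.

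Among 10 nemaline myopathy genes 0 passed by limma and 0 had an unadjusted p under 0.05, with a median log2 difference of 0.0435 and 7 above 0. Acta1, skeletal actin, had a difference of -0.03, Tnnt3, fast troponin T, 0.02, and Tpm2, a tropomyosin, 0.07. Tpm3 and Tnnt1, genes of slow fibres, had 0.70 (95% confidence interval -0.16 to 1.56) and 1.61 (-1.15 to 4.37). For Tnnt1, Acot2 mKO replicates 3 and 4 held 420 and 1161 normalized reads, and the other 6 libraries held 13.4 to 85.0. Of 13 sarcomere backbone genes 0 passed by limma and 0 had an unadjusted p under 0.05, with a median of -0.0181. Titin (Ttn) had -0.07, Actn3 -0.03, Mybpc2 -0.09 and Tcap 0.18.

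Genes of other cell and fibre types moved with some libraries. The 8 slow fibre markers summed to 2025 to 3151 normalized reads in control and to 1956, 2891, 7902 and 18767 in Acot2 mKO replicates 1 to 4. Their defining gene, Myh7, stood at 11.8, 35.5, 2133 and 7430 there, against 7.83 to 40.1 in control. The 7 adipocyte markers summed to 3994, 20355, 9226 and 2487 in control replicates 1 to 4 and to 2520 to 3387 in Acot2 mKO libraries. Fabp4 alone held 1787 to 2413 of the reads in Acot2 mKO libraries. Plin1, another of the 7, ran from 56.3 to 1322 in control and from 41.6 to 109 in Acot2 mKO. The log2 difference of Kbtbd12 was 1.62 without Acot2 mKO replicates 3 and 4, and 1.59 without control replicates 2 and 3, given as a description. The part of slow fibre or fat content in the Kbtbd12 difference was not tested. In such bulk samples fewer cells of a type and less RNA per cell cannot be told apart.

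The label of a white, fast muscle was met by its markers. Myh4, the myosin of fast glycolytic fibres, held 2521585 to 3400934 normalized reads, and the 7 fast glycolytic markers summed to 4626333 to 5552325 over control and 4352230 to 5283808 over Acot2 mKO libraries. Myh1, of intermediate fibres, ran from 49067 to 207420 and from 72600 to 224708 in these groups. Sums for endothelium were 5673 to 6492 and 4765 to 6827, for macrophages 1160 to 1590 and 840 to 1812, and for satellite cells 401 to 502 and 478 to 531. Those for fibroblasts were 24358 to 38636 and 22836 to 45145, and for blood 1396 to 2229 and 1378 to 2159. No marker of these lists was at 0 in all libraries, and 0 markers passed by limma. An unadjusted p under 0.05 was reached by 4 of 7 adipocyte, 1 of 8 slow fibre and 1 of 4 satellite cell markers. The share over all tested genes was 2.91%. All 7 adipocyte markers had log2 differences below 0, and all 8 slow fibre markers above 0. Of the satellite cell markers 1 was above and 3 were below 0. The 1 above was Chodl (0.28), which held most of the satellite cell sum in every library. Pax7, Myf5 and Calcr were at -0.20, -0.32 and -0.83, so the sum mainly follows Chodl.

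The 10 genes did not share 1 pattern across libraries, although some pairs moved together. Between pairs of the 10, Pearson's r of log2 values minus the group mean ran from -0.87 (Klhl31 with Kbtbd13) to 0.79 (Klhl31 with Kbtbd12). Among control libraries Klhl31 was highest in replicate 2 and lowest in replicate 3, and Kbtbd13 the reverse, at -0.34 and 0.31 on the log2 scale from its group mean. Klhl38 was lowest in Acot2 mKO replicate 2 and highest in replicate 3, at -0.29 and 0.39. Kbtbd12 stayed within 0.07 of its group mean in every library except Acot2 mKO replicate 4, where it was at -0.15. Its within-group SD, 0.0815 on the log2 scale, was larger than that of 33.9% of the 936 genes within 0.5 of its mean log2 level. Kbtbd13 was the most variable for its level, with an SD larger than that of 93.5% of 1796 such genes.

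**Figure D5:**
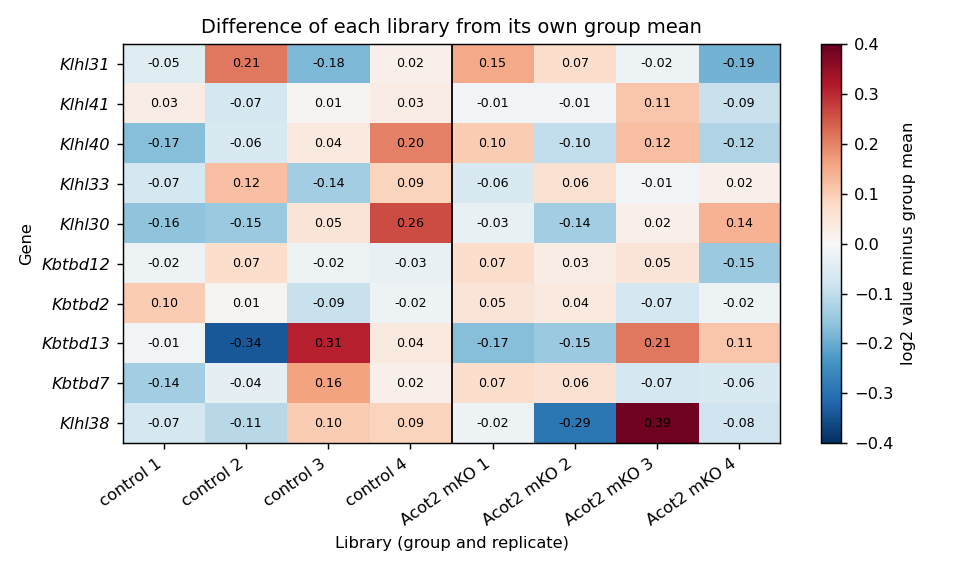
Log2 value of each gene (rows) in each library (columns, group and replicate) minus the mean of its own group, printed and coloured from blue (below) to red (above); the line separates control from Acot2 mKO libraries. Kbtbd13 runs from -0.34 in control replicate 2 to 0.31 in control replicate 3, and Kbtbd12 stays between -0.15 and 0.07.

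Likeness between genes was described by Pearson's r of log2 values minus the group mean over the 8 libraries, leaving out predicted genes. All tested genes were searched, so high values are found for any gene, and the points share depth and scaling. The 5 genes most like Kbtbd12 were Pmpca (r = 0.982), a subunit of the mitochondrial processing peptidase, R3hdm4 (0.975), Bclaf1 (0.967), Cd3eap (0.966) and Abca4 (0.966). Most like Klhl31 were Tceal5 (0.993), Prkag3 (0.986), the AMPK gamma subunit of fast muscle, Mybph (0.979), Exoc7 (0.969) and Ube2d1 (0.962). Most like Klhl41 were Osgep (0.985), Spcs1 (0.985) and the ribosomal protein genes Rps27 (0.982), Rps3 (0.979) and Rps18 (0.979).

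The tested genes next to Kbtbd12 on chromosome 6, chosen by position, were Sec61a1 and Mgll. Sec61a1, of the protein channel of the endoplasmic reticulum, averaged 618 ± 37.6 normalized reads in the control group and 637 ± 65.3 in the other, and Mgll, monoacylglycerol lipase, 906 ± 339 and 841 ± 97.5 (SD, n = 4 each). Their log2 differences were 0.04 and -0.04 (limma adjusted p = 0.9995 each).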

How the data were processed

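RNA from 8 white quadriceps samples, extracted with a Norgen kit, was made into stranded TruSeq libraries, per the labels' protocols. The submitters' processing notes list FastQC, cutadapt, STAR, HTSeq, DESeq2 and the build GRCm38 without roles or versions. Which gene models served for counting was not stated in the sources used. The authors deposited log2 values of x + 1. From the values, x is a read count divided by 1 factor per library: 100% of values below 1000 reads lay within 0.1 of a whole multiple of 1 step. Undoing the log gave normalized reads and recovered reads. For 27 gene names that a spreadsheet had made into dates, the symbol was looked up by NCBI gene number.

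The group difference was fitted with limma 3.58.1 (R 4.3.3, trend on mean expression) on the deposited log2 values. Genes entered with 10 or more normalized reads in 4 or more of the 8 libraries. P-values were adjusted over the 13638 genes by the Benjamini-Hochberg method at 0.05, and the fit was tested on simulated data. Fold changes carry the pseudocount of 1. Lengths and positions came from GENCODE M21 (GRCm38), promoters from RefSeq. Replicates differed beyond sampling noise and carry separate animal numbers. No batch is labelled.

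The 10 genes and all lists were chosen with earlier results of these data known. Named genes were the 10, Acot2, from each list up to 4 with the highest level per length and up to 2 with the smallest p, and the likeness genes. Slow, fast and other cell type markers are named where they touch a result. Alternatives were other pseudocounts, filters, scalings and weights, limma-voom, a block for adjacent animal numbers and libraries left out.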

Additional observations from a re-analysis of the deposited data

Results flagged for a closer look

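Of the 20 groups of 4 libraries formed by the 10 genes, 1 held a library far from the other 3. Kbtbd12 had 1840 normalized reads in control replicate 2, against 1715 to 1730 in the other 3 control libraries. The gap made up 0.884 of the group's range, above Dixon's 95% critical value for 4 samples. Chance flags about 1 in 20 such groups. Control replicate 2 also had the most adipocyte reads of the 8 libraries, and without it the log2 difference of Kbtbd12 was 1.59 in place of 1.57.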

How the results depend on the processing

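Over 19 alternative fits the log2 difference of Kbtbd12, which was picked on it in these libraries, ran from 1.54 to 1.62, given as a description. None of the 9 others passed in any fit; their smallest adjusted p was 0.90. The place of Kbtbd12 by level per length was 8 with the union of all exons and 4 in Acot2 mKO libraries, and 6 with each control replicate left out or without division by length. Some differences near 0 changed sign. With each replicate left out in turn, Klhl30 ran from -0.00897 to 0.13, Klhl31 from -0.0891 to 0.0419, Klhl33 from -0.0493 to 0.0359, Klhl38 from -0.139 to 0.0864 and Klhl40 from -0.097 to 0.0277. Without both Acot2 mKO replicates 3 and 4, Klhl30 was at -0.0372 and Klhl31 at 0.0784. Without both control replicates 2 and 3, Klhl30 was at -0.00308. Library weights put Klhl31 at 0.0158, and quantile normalization put Klhl38 at 0.00704. The causes of these sign changes were not tested. Adjacent animal numbers, a control beside an Acot2 mKO animal, correlated at 0.151, -0.0835, 0.188 and -0.0812 in their deviations from group means and were not treated as pairs; with the replicate block Kbtbd12 was at 1.57 and 0 of the 9 others passed. Depth limits Klhl38 most, with as few as 106 reads in a library.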
